A study of Mus musculus with 6 samples.

Results

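The respiratory chain and ATP synthase make most of the ATP of a neuron, and 90 genes for their parts and close relatives were measured here in retina that lacks photoreceptor cadherin. The members are all genes whose symbol in the platform annotation begins with Nduf followed by a, b, c, s or v (complex I), equals Sdha, Sdhb, Sdhc or Sdhd (complex II), or begins with Uqcr (complex III), Cox4 to Cox8 (complex IV) or Atp5 (complex V). They hold 179 of 45037 probe sets and 90 of the 18193 genes with a probe set of a single symbol. Where a gene had several probe sets, the brightest by its mean of all arrays stood for the gene. By class there were 6 core and 29 accessory genes of complex I, 4 of complex II, 8 of complex III, 16 of complex IV, 17 of complex V, and 10 assembly and related factors.

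RNA from whole retina was hybridised to 6 arrays of 1 colour, 3 for prCAD mutant (prCAD -/-) mice and 3 for wild type 129 mice, all aged about 4 weeks. Retinas of 3 mice were pooled for each array, so replicate error here is that of pools. The series calls the mutant a model for retinal degeneration, and the sources used here do not name its strain. The values are log2 expression values, with array medians between 4.74 and 4.79, and 3 arrays in a group limit the precision of every value. Cdhr1, the gene for photoreceptor cadherin, read 11.32, 11.36 and 10.98 in wild type and 3.94, 4.20 and 4.34 in mutant retina, a fall of 7.06 (SE 0.15, limma, adjusted p = 2.18e-05).

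Complexes I and II take electrons from NADH and succinate and pass them to ubiquinone, complex III passes them on to cytochrome c, and complex IV hands them to oxygen. Complexes I, III and IV pump protons out of the mitochondrial matrix, and the ATP synthase, complex V, uses their return to make ATP. In the retina, photoreceptors crowd mitochondria into the ellipsoid of the inner segment, next to the outer segment base where photoreceptor cadherin lies. The core subunits of complexes I, III, IV and V that mitochondrial DNA encodes are not named on the array, so all members here are nuclear genes.

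Transcripts of the respiratory chain and ATP synthase did not pass the test in mutant retina in any complex. Of the 90 genes, 0 passed at an adjusted p under 0.05 (limma with Benjamini-Hochberg adjustment over 45037 probe sets), while 0.0165% of all genes and 0.0111% of all probe sets did. At an unadjusted p under 0.05 there was 1 member, Ndufaf4, or 1 of 90 beside 3.42% of all genes. With the replicate number as a block 0 members passed as well, at a lowest adjusted p of 0.612 (limma), while 0.044% of all genes and 0.0333% of all probe sets passed. With the block 4 members had an unadjusted p under 0.05, or 4.44% of them, beside 7.44% of all genes. The 90 differences, mutant minus wild type, ran from -0.29 to 0.33 on the log2 scale. Their median was -0.0034, with quartiles of -0.06 and 0.07, beside a median of 0.02 over all genes. A difference above 0.2 in size was seen in 4 members, which is 4.44% of them, against 12.9% of all genes.

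The intervals give a range for the difference of each gene taken alone, at the probe set used and in whole retina. The 95% interval of the difference lay within -0.5 and 0.5 in 61 of the 90 genes (67.8%, against 76.6% of all genes), and within -1 and 1 in 89 (98.1% of all genes). The exception to the wider limits was Cox6b1, a complex IV subunit, with an interval from -0.75 to 1.00. With the replicate number as a block, that of Cox6b1 ran from -0.06 to 0.32. When the replicate number was taken as a block the interval lay within -0.5 and 0.5 in 86 of the 90, against 90.6% of all genes. In whole retina, fewer cells of a type and less RNA per cell cannot be told apart.

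**Figure D1:**
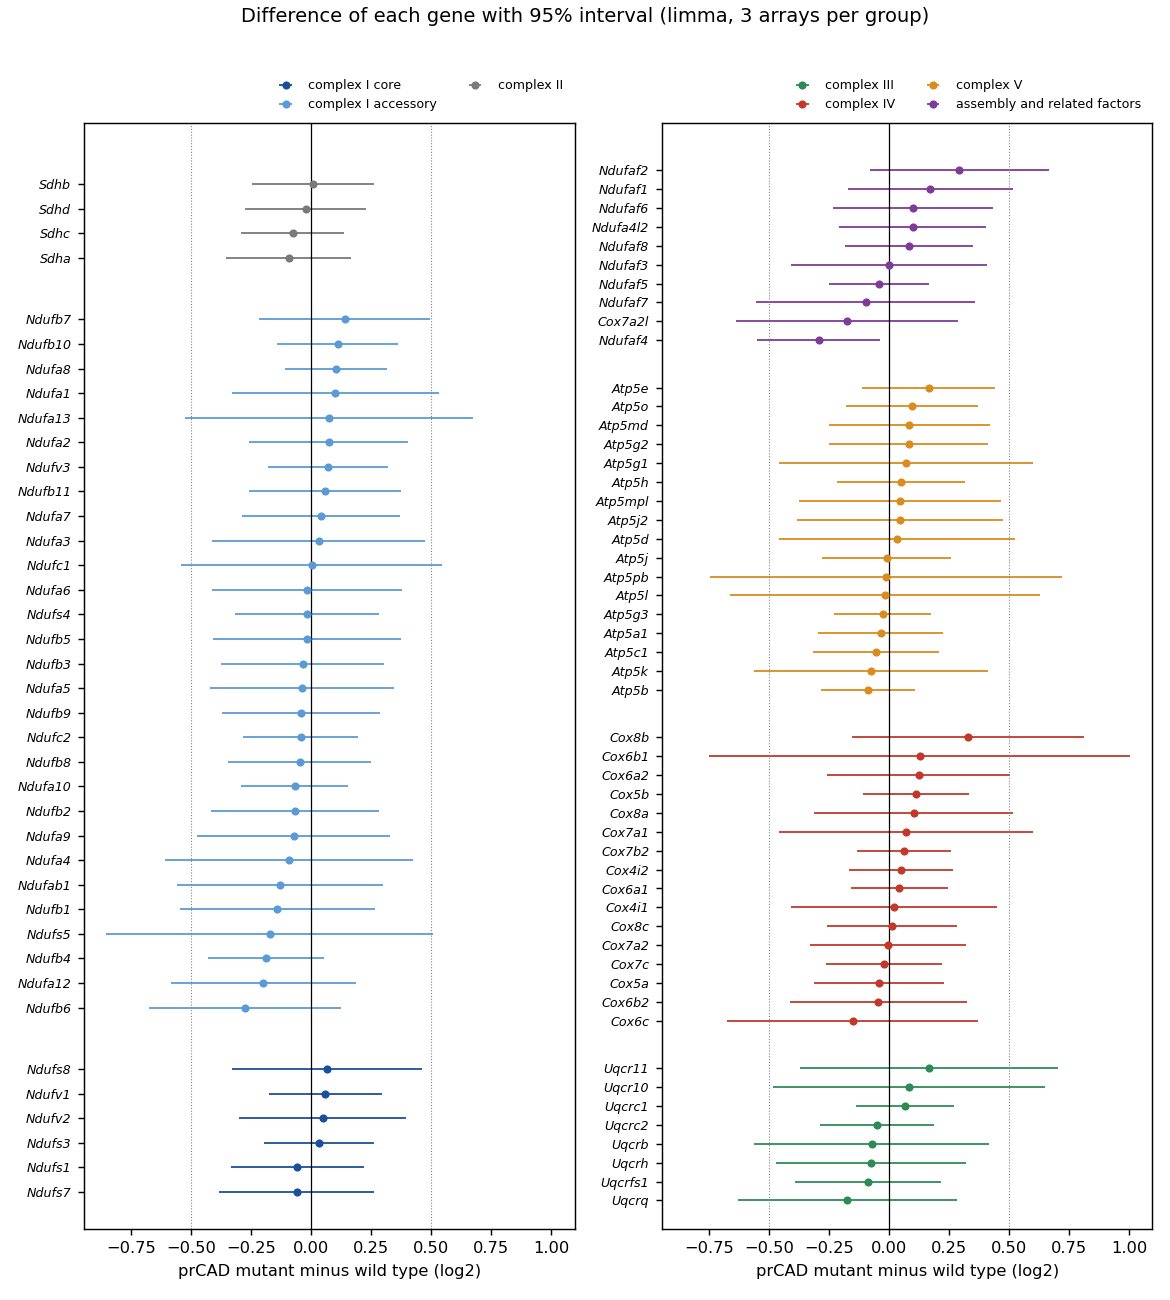
Difference of each of the 90 genes, prCAD mutant minus wild type, on the log2 scale (horizontal axis), with its 95% interval from limma, grouped by class. Dotted lines mark -0.5 and 0.5; the differences run from -0.29 (Ndufaf4) to 0.33 (Cox8b), and the interval of Ndufaf4 is the one that leaves out 0.

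The count of members with a lower mutant mean moved when single arrays were left out. In all, 46 of 90 genes had a lower mutant mean, against 41.6% of all genes. Leaving out wild type replicate 2 gave 24, leaving out mutant replicate 3 gave 30 and leaving out mutant replicate 2 gave 68. Without a single array, its replicate number is left in only the other group. Such values, here and in the classes below, therefore mix the genotype difference with differences between the numbers. The groups did not overlap in 4 genes, where 8.77% of all genes had groups that do not overlap. All 3 mutant arrays lay lower for Atp5b and Ndufaf4, against 2.88% of all genes, and higher for Cox5b and Ndufa8, against 5.89%. Within the pairs of same-numbered arrays, 12 members lay lower in every pair, against 11.4% of all genes, and 16 lay higher in every pair, against 20% of all genes.

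Complex I genes were centred near 0. The 6 core genes, which encode subunits of the arm that takes electrons from NADH to ubiquinone, had a median difference of 0.04, or 0.02, 0.03 and 0.04 within the 3 pairs of same-numbered arrays. Without wild type replicate 3 that median was -0.06, and without mutant replicate 2 it was -0.04. Ndufs3 read 8.92, 9.10 and 9.07 in wild type and 8.96, 9.14 and 9.07 in mutant arrays, so the groups overlapped and the difference was 0.03 (SE 0.10). Ndufv1, the flavin-binding subunit that accepts electrons from NADH, differed by 0.06 (SE 0.10). Ndufs1, the largest subunit of the electron input module, differed by -0.06 (SE 0.12). Ndufs7, which carries an iron-sulfur cluster near the ubiquinone site, differed by -0.06 (SE 0.14), and its second probe set by 0.14.

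Of the 29 accessory genes of complex I, 18 had a lower mutant mean, and their median was -0.04 (pairs -0.06, 0.05 and -0.03). That median turned positive when wild type replicate 2 (0.06) was left out, and likewise for mutant replicates 1 (0.05) and 3 (0.02). Leaving out wild type replicate 1 gave -0.08, and mutant replicate 2 gave -0.14. Ndufb6, a subunit of the membrane arm, read 8.94, 9.17 and 8.85 in wild type and 8.498, 9.06 and 8.58 in mutant retina. The groups overlapped, but each mutant array lay below the wild type array of its number. The difference of -0.27 (SE 0.17) had an unadjusted p of 0.149, or 0.0277 with the block, where the adjusted p was 0.617 (limma). Ndufa12 also lay lower in each pair, by -0.20 on average (SE 0.16). A dimmer Ndufa12 probe set was singled out after its values were seen. It read 4.37, 4.91 and 6.58 in wild type and 3.78, 4.48 and 5.49 in mutant arrays. Its difference was -0.70 (SE 0.63, or 0.14 with the block), and it lay lower in each pair. With the block its unadjusted p was 0.00186 and its adjusted p 0.379 (limma). Ndufb4 differed by -0.19 (SE 0.10), at levels of 3.73 to 4.11 that lie below 4.76, the median of all values, as did 4 of the 90 genes and 34.2% of all genes in both group means. Ndufa4, which carries a complex I name but is now placed in complex IV, differed by -0.09 (SE 0.22).

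The 4 genes of complex II, succinate dehydrogenase, had the narrowest range. Their differences ran from -0.09 to 0.0078, with a median of -0.05, and all 4 intervals lay within -0.5 and 0.5. Sdha, the flavoprotein that oxidises succinate, read 9.60, 9.50 and 9.53 in wild type and 9.63, 9.42 and 9.29 in mutant retina. The groups overlapped, and the difference was -0.09 (SE 0.11). The differences of the 4 Sdha probe sets ran from -0.09 to 0.10. Sdhc and Sdhd, the membrane anchors, differed by -0.08 (SE 0.09) and -0.02 (SE 0.11).

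Complex III genes had a median of -0.06, and 5 of 8 had a lower mutant mean. The median ranged from -0.09 without wild type replicate 3 to 0.02 without mutant replicate 3, and was also just above 0 without wild type replicate 2 (0.0051) or mutant replicate 1 (0.0039). The probe set used for Uqcrq, a small subunit, differed by -0.18 (SE 0.19) and lay lower in each pair. Uqcr11, another small subunit, differed the other way, by 0.17 (SE 0.23), and lay higher in each pair. The differences of the 4 Uqcrq probe sets ran from -0.18 to 0.05. Uqcrc1, a core protein of the complex, read 9.24, 9.30 and 9.24 in wild type and 9.32, 9.40 and 9.25 in mutant arrays, a difference of 0.06 (SE 0.09). Uqcrb, which lies near the ubiquinone site, differed by -0.07 (SE 0.21).

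In complex IV, cytochrome c oxidase, 11 of 16 genes had a higher mutant mean and the median was 0.05 (pairs 0.06, 0.05 and 0.09). The median turned to -0.04 when wild type replicate 3 was left out and to -0.01 when mutant replicate 2 was. Leaving out mutant replicate 1 gave 0.03, mutant replicate 3 gave 0.08 and wild type replicate 2 gave 0.09. The count without the 7 genes of tissue-restricted isoforms was 5 of 9, with a median of 0.02. Cox5b, which binds zinc, read 10.85, 10.84 and 10.75 in wild type and 11.04, 10.88 and 10.85 in mutant retina. The groups did not overlap, the difference was 0.11 (SE 0.09), and the unadjusted p by limma was 0.268. The Cox5b probe set used here can bind related transcripts by its identifier (_x_at), and without such probe sets the value was -0.04. Cox6a1, the ubiquitous form of subunit 6a, differed by 0.04 (SE 0.09), with wild type values of 11.08, 11.07 and 11.09.

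The isoforms of complex IV known from muscle, lung and testis did not pass either. Cox8b, the heart and skeletal muscle form of subunit 8, read 4.89, 4.83 and 4.15 in wild type and 5.01, 5.05 and 4.79 in mutant arrays. Wild type replicate 3 was the lowest of the 6, the groups overlapped, and the difference was 0.33 (SE 0.20), with an unadjusted p of 0.154, or 0.0322 and an adjusted p of 0.629 with the block (limma). Cox6a2, another muscle form, was highest in mutant replicate 3, at 6.46, where the other 5 arrays lay between 5.87 and 6.004. Its difference was 0.12 (SE 0.16). Cox7a1 of muscle (0.07, SE 0.22) and Cox7b2 of testis (0.06, SE 0.08) lay below 4.76 in both groups. Cox4i2, the lung form that responds to oxygen, differed by 0.05 (SE 0.09), and the testis forms Cox6b2 and Cox8c by -0.05 (SE 0.16) and 0.01 (SE 0.12). Of 14 markers of skeletal and extraocular muscle, 11 lay below 4.76 in both groups. The summed level of these markers was 8.003 to 8.19 in wild type and 8.04 to 8.25 in mutant arrays on the log2 scale, and their part in the values of muscle isoforms was not tested.

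Among 17 genes of the ATP synthase, 8 had a lower mutant mean, and the median was 0.03 (pairs -0.02, 0.05 and 0.0064). Atp5b, the catalytic beta subunit, read 11.003, 10.97 and 11.02 in wild type and 10.92, 10.96 and 10.86 in mutant retina. All 3 mutant arrays lay below all 3 wild type arrays, by -0.09 on average (SE 0.08, 95% interval -0.28 to 0.11). Atp5e, the epsilon subunit of the rotor, differed by 0.16 (SE 0.12) and lay higher in each pair. Atp5o, which ties the catalytic head to the stalk, differed by 0.09 (SE 0.12). Leaving out wild type replicate 2 moved the median of the 17 to 0.14, and leaving out mutant replicate 3 moved it to 0.13. It turned to -0.06 when wild type replicate 3 was left out and to -0.07 when mutant replicate 2 was.

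The factors that assemble complex I held the members with the smallest p, Ndufaf4 on group alone and Ndufaf2 with the replicate number as a block. Ndufaf4 read 6.75, 6.88 and 6.90 in wild type and 6.63, 6.64 and 6.37 in mutant retina. The mutant arrays all lay lower, with mutant replicate 3 the lowest. The difference was -0.29 (SE 0.11, 95% interval -0.55 to -0.04), with an unadjusted p of 0.0302 that did not pass adjustment over all probe sets (limma, adjusted p = 1.00). A second, dimmer Ndufaf4 probe set differed by 0.04 (SE 0.16), and the mean of both by -0.13. Ndufaf2, another assembly factor, read 6.32, 6.26 and 5.95 in wild type and 6.41, 6.74 and 6.26 in mutant arrays. It lay higher in each pair, with a difference of 0.29 (SE 0.16, or 0.10 with the block). The unadjusted p of Ndufaf2 was 0.107, or 0.0268 and an adjusted p of 0.612 with the block (limma). With the block the unadjusted p of Ndufaf4 was 0.0289 and its adjusted p 0.618 (limma). Ndufaf1 differed by 0.17 (SE 0.15). Cox7a2l, which joins complexes III and IV into supercomplexes, differed by -0.17 (SE 0.20).

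**Figure D2:**
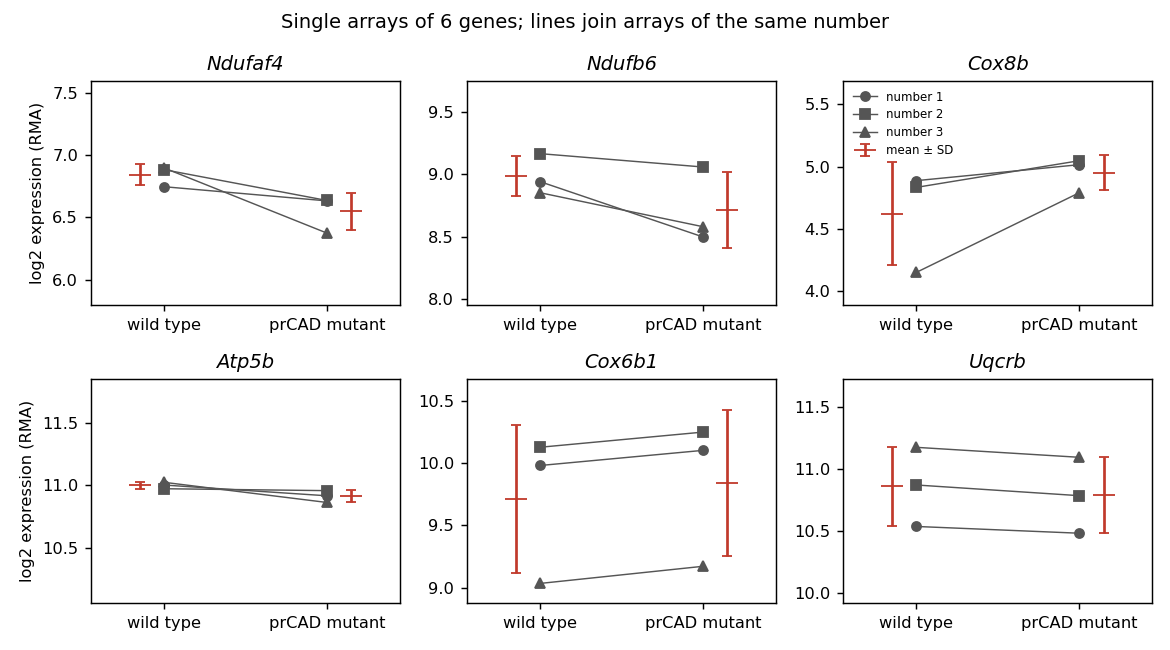
Log2 expression (vertical axis, 1.8 units in every panel) of 6 genes in single arrays of wild type and prCAD mutant retina, with lines between arrays of the same number and group means ± SD (n = 3) in red. Ndufaf4 lies lower in all mutant arrays, and in Cox6b1 and Uqcrb the lines run nearly level while the numbers stand far apart.

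The members varied far more with the replicate number than with the genotype. Arrays of both groups are numbered 1 to 3 in their titles, and what a number stands for is not stated. For each gene the sum of squares over the 6 arrays was split into a part for group, a part for number and a residual. The number held a median of 84.4% over the 90 genes and the group 5.12%, against 58.2% and 10.1% over all genes. Over the other mitochondrial lists given below, the share of the number ran from 48.4% in biogenesis regulators to 81.0% in TCA cycle genes. It was 75.7% in the mitochondrial ribosomal protein genes. The number has 3 levels and the group 2, so the number can take a larger part. In 76 of the 90 genes the number held over 50% of the sum of squares, against 58.4% of all genes. By class the median share of the number ran from 65.1% in the assembly and related factors to 86.3% in complex V.

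Arrays of number 2 read highest. The mean of the 2 arrays of number 2 was the highest of the 3 numbers in 69 of the 90 genes, against 31.9% of all genes. It was so in 16 of 17 genes of complex V, in 25 of 29 accessory genes of complex I and in 2 of 4 genes of complex II. The median deviation of the 90 genes from their own means was -0.04, 0.13 and -0.09 in wild type replicates 1, 2 and 3 and -0.05, 0.18 and -0.10 in mutant replicates 1, 2 and 3. Over all genes these medians were 0.02, 0.0084 and -0.07 in wild type and 0.06, 0.03 and -0.05 in mutant arrays. Deviations of the 90 genes from their group means correlated at 0.777, 0.715 and 0.743 between arrays of the same number, a description across genes that share arrays and processing. The control probe sets of Gapdh differed between their 3' and 5' ends by -0.20 to -0.09 in wild type and by -0.25 to 0.03 in mutant arrays, and those of Actb by 0.59 to 0.77 and 0.72 to 0.91. Of 13 lens markers, 12 had their highest mean in number 2. Median deviations of the lens markers were -0.28, 0.50 and -1.27 in wild type replicates 1, 2 and 3. In mutant replicates 1, 2 and 3 they were -0.10, 0.60 and 0.61, so there number 3 lay as high as number 2. Their summed level was 13.99 to 15.53 in wild type and 14.99 to 15.65 in mutant arrays, lowest in wild type replicate 3. Pigment epithelium markers had their highest mean in number 2 in 10 of 14 genes, and rod markers in 1 of 16. The summed level of the pigment epithelium markers was 10.85, 10.80 and 9.86 in wild type replicates 1, 2 and 3. It was 11.54, 11.64 and 11.15 in mutant replicates 1, 2 and 3. The part of RNA quality and of other tissue in the differences between numbers was not tested.

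**Figure D3:**
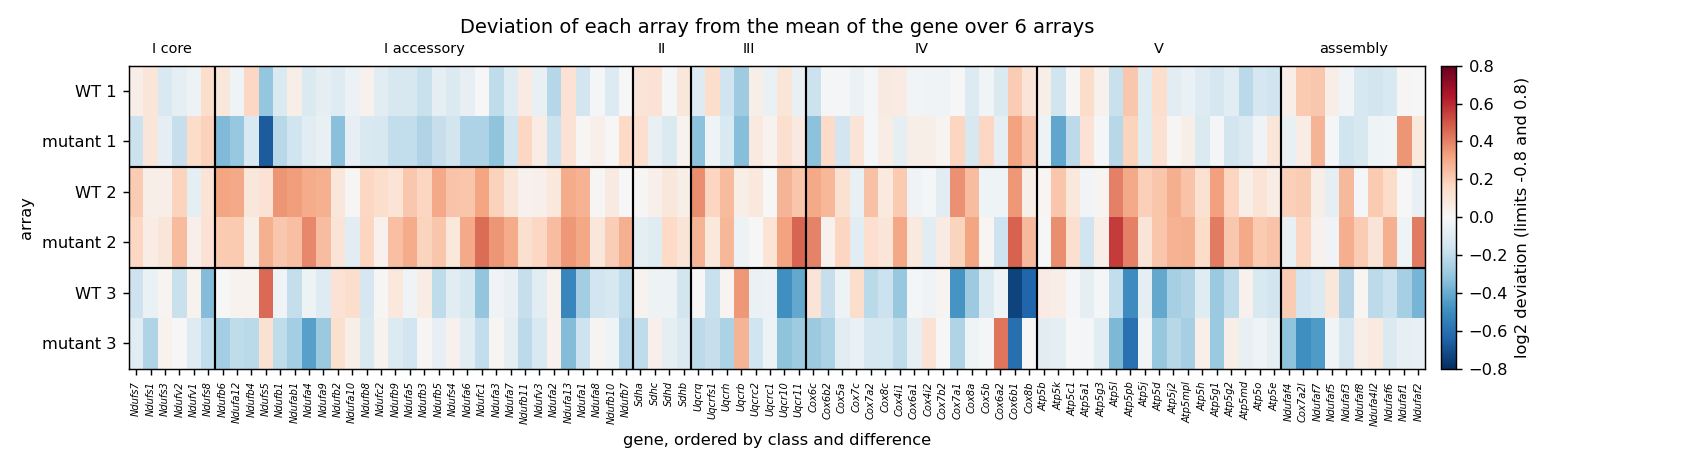
Deviation (colour, log2, from -0.8 to 0.8) of each array (rows, paired by number) from the mean of each of the 90 genes (columns, by class). Both rows of number 2 are mostly red, with medians of 0.13 in wild type and 0.18 in mutant retina, while wild type and mutant rows of the same number resemble each other.

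The next genes were chosen after their values were seen, for means of the numbers that lay far apart. Cox6b1 read 9.98, 10.13 and 9.03 in wild type and 10.10, 10.25 and 9.17 in mutant arrays, so that number 3 lay low in both groups and the means of the numbers spanned 1.09. The genotype difference of Cox6b1 was 0.13 (SE 0.37, or 0.08 with the block), and 0.12, 0.12 and 0.14 within the pairs. Atp5pb, the b subunit of the ATP synthase stalk, read 9.62, 9.71 and 8.90 in wild type and 9.58, 9.81 and 8.80 in mutant retina, with number 3 again low. Other probe sets of both genes moved less: the means of the numbers spanned 0.39 in that of Cox6b1 and 0.28 in that of Atp5pb. Uqcrb had another order, with 10.54, 10.87 and 11.17 in wild type and 10.48, 10.79 and 11.09 in mutant arrays, number 3 being highest. Its second probe set read 7.67, 7.91 and 7.42 in wild type and 7.44, 7.96 and 7.30 in mutant arrays, where number 3 was lowest, so that the probe sets of Uqcrb disagreed on the order of the numbers. Ndufs5 was lowest in number 1, with 7.59 in wild type and 7.23 in mutant retina, against 8.02 to 8.35 in the other 4 arrays.

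**Figure D4:**
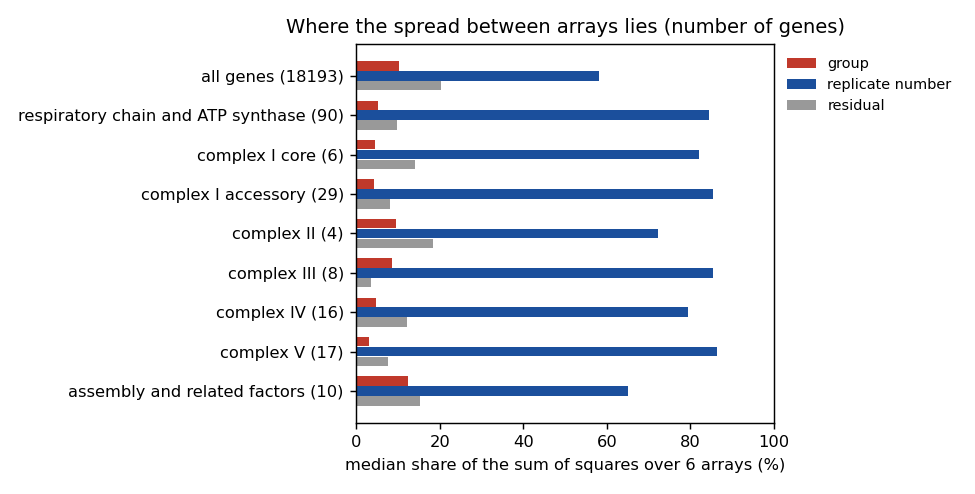
Median share of the sum of squares over the 6 arrays (horizontal axis, %) that lies with group, replicate number and residual, for all 18193 genes, the 90 genes and each class, with the number of genes in brackets. The bar of the number reaches 84.4% for the 90 genes and 58.2% for all genes, and that of the group 5.12% and 10.1%.

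Nuclear genes of the respiratory chain are known targets of the transcription factors NRF1, GABP (also called NRF2), YY1 and the ERR receptors, so their promoters were searched for the letters of these motifs on both strands. RefSeq promoters of GRCm38.p6, from 250 bases before to 50 after the start, were matched by gene ID for 74 of the 90 genes (79 promoters). The GABP letters CCGGAAG were in 24.1% of member promoters and in 8.86% of all 32851 promoters of 300 bases. The full palindromic NRF1 motif was in 7.59% against 0.971%, and GCATGCGC, the NRF1 letters without their first pair, in 13.9% against 2.71%. The YY1 letters AAGATGGCG were in 8.86% of member promoters against 1.40%, and the ERR letters TCAAGGTCA in 2.53% against 0.423%. Over the 21263 promoters of coding genes alone, the shares were 11.6% for GABP, 1.33% for the full NRF1 motif and 3.52% for GCATGCGC. For YY1 and ERR they were 1.83% and 0.334%. The GCATGCGC matches include every match of the full NRF1 motif, and a match describes letters in a window and not a bound site. The next 4 promoters are of members named above with at least 1 of these motifs, from 250 bases before to 30 after the start, 5′ to 3′ on the strand of the gene, with the motif letters or their reverse complement in capitals. They lie at chr5:115348929-115349208 (minus strand), chr10:80406792-80407071 (minus strand), chr4:24897833-24898112 (plus strand) and chr4:40279392-40279671 (minus strand).
Cox6a1: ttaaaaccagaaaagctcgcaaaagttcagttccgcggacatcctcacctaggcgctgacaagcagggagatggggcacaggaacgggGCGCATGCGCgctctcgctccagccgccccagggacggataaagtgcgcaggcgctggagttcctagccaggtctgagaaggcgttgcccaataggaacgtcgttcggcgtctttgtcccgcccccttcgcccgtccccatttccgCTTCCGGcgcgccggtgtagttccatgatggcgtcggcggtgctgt
Uqcr11: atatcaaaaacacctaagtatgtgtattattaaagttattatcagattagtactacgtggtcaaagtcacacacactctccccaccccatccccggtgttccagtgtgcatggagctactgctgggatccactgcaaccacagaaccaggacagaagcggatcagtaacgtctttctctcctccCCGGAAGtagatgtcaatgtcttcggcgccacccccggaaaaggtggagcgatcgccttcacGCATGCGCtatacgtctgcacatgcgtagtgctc
Ndufaf4: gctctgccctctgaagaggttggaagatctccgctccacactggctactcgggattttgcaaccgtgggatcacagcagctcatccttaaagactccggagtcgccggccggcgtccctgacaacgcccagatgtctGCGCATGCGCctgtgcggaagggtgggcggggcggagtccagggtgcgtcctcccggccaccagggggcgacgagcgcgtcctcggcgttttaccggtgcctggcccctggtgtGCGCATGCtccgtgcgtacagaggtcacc
Ndufb6: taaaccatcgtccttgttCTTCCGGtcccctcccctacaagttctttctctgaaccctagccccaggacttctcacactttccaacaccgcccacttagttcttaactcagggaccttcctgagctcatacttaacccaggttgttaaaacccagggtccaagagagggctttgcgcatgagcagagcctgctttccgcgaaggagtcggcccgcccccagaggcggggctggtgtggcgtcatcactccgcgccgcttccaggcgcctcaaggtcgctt
Cox6a1 and Uqcr11 carry both CCGGAAG and GCATGCGC, Ndufaf4 carries GCATGCGC and Ndufb6 carries CCGGAAG, and in Cox6a1 and Ndufaf4 the NRF1 motif is the full one. Of these 4 genes, Uqcr11 lay higher and Ndufaf4 and Ndufb6 lower in each pair, while Cox6a1 was mixed, and 0 passed the test.

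Genes around the respiratory chain gave the same count of 0 past the threshold in every list, at 0.0165% of all genes. The 37 assembly factors outside the family names had a median difference of 0.03. Pet100, which helps to build complex IV, differed by 0.37 (SE 0.16), and Lrpprc, which stabilises mitochondrial messenger RNA, by -0.31 (SE 0.18). The 21 genes of cytochrome c, cytochrome c1 and ubiquinone had a median of 0.03. Coq4, a gene of ubiquinone synthesis, read 6.15, 6.03 and 5.88 in wild type and 6.57, 6.52 and 6.30 in mutant arrays, with all mutant arrays higher. It differed by 0.45 (SE 0.12), with an unadjusted p of 0.00645 by limma and an adjusted p of 1.00. Coq10b, whose product binds ubiquinone, lay lower in all mutant arrays, by -0.34 on average (SE 0.11). Both Coq genes were named for the smallest p of their list. All mutant arrays lay higher in 5.89% of all genes and lower in 2.88%.

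The 25 genes of the TCA cycle and pyruvate entry had a median of -0.0099, and Pdp1 (-0.31, SE 0.13) and Pdk3 (0.20, SE 0.10), a phosphatase and a kinase of pyruvate dehydrogenase, had the smallest p. The 14 genes of ADP/ATP exchange, phosphate and creatine had a median of 0.04, with the smallest p in the adenylate kinase gene Ak4 (-0.49, SE 0.18) and the mitochondrial creatine kinase gene Ckmt1 (0.29, SE 0.21). The 76 mitochondrial ribosomal protein genes had a median of -0.0073, with Mrps6 at 0.22 (SE 0.09) and Mrps25 at 0.23 (SE 0.10), and the arrays of number 2 read highest in 67.1% of them.

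The 22 regulators of mitochondrial biogenesis had a median of -0.05, and 14 had a lower mutant mean. Ppargc1a, the coactivator PGC-1alpha that drives respiratory chain genes, read 6.08, 5.92 and 6.32 in wild type and 5.66, 5.48 and 5.81 in mutant retina. All mutant arrays lay below all wild type arrays, against 2.88% of all genes, and the difference was -0.46 (SE 0.14, 95% interval -0.79 to -0.13). Ppargc1a was named for its small p within the list, a choice that favours genes whose groups lie apart. Its unadjusted p of 0.0135 did not pass adjustment over all probe sets (limma, adjusted p = 1.00, or 0.321 with the block). Esrrb, a nuclear receptor of the ERR family that is also a rod gene, differed by -0.42 (SE 0.13). Nrf1 differed by -0.07 (SE 0.14) and Tfam, which packs and transcribes mitochondrial DNA, by 0.02 (SE 0.21).

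Of 16 markers of rods, the most numerous cells of the mouse retina, 14 had a lower mutant mean. Their median difference was -0.20, and -0.11, -0.03 and -0.47 within the pairs, beside -0.0034 for the respiratory chain and ATP synthase. Their summed level was 15.43 to 15.71 in wild type and 15.44 to 15.54 in mutant arrays. Markers of the pigment epithelium, the layer behind the photoreceptors, had a summed level of 9.86 to 10.85 in wild type and 11.15 to 11.64 in mutant arrays, with a higher mutant mean in 13 of 14 genes. Ganglion cell markers had a lower mutant mean in 11 of 11 genes, with a median of -0.29 and summed levels of 11.06 to 11.56 in wild type and 10.87 to 11.17 in mutant arrays. Lens markers had a higher mutant mean in 12 of 13 genes, with a median of 0.69, but 0.08, 0.17 and 1.85 within the pairs. Markers of microglia and macrophages did so in 10 of 11, with a median of 0.17 and summed levels of 8.94 to 9.01 in wild type and 9.22 to 9.38 in mutant arrays. Muller glia markers did so in 8 of 12, with a median of 0.16 and summed levels of 12.97 to 13.35 in wild type and 13.32 to 13.61 in mutant arrays. Cone markers did so in 5 of 11, with a median of -0.06. Rlbp1 stands in the lists of both the pigment epithelium and Muller glia. The part of these cell types in the values of the respiratory chain was not tested.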

How the data were processed

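Gene expression was measured in 6 samples with single-colour arrays. The deposited values are on a log2 scale, and the submitters' processing notes name RMA without a version as the authors' method. RMA gives arrays a common distribution, which removes differences in total signal. The genome build is not given in any source used here. Of 45101 probe sets, 64 manufacturer controls were left out. Names came from the platform annotation, in which 34945 probe sets have 1 symbol, 932 several and 9160 none.

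Groups were compared by limma 3.58.1 in R 4.3.3, with lmFit and eBayes on group as the single term. P-values were adjusted by Benjamini-Hochberg over 45037 probe sets, and the steps were tested on simulated data. Groups followed the sample titles. Over all probe sets the arrays that share a number deviated together, with correlations of 0.477, 0.469 and 0.563, each above 0.1. The numbers were read as pairs from the data. Results of the fit with the replicate number as a block stand beside those they bear on. Nothing in the labels says that pools of one group came from separate litters, so p-values measure the spread between pools.

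The members, lists, motifs and rule for named genes were chosen with earlier results of these data known. The rule names, per class, the 3 genes with the smallest p and the 1 with the highest mean, complex IV isoforms, genes whose probe sets disagree in sign by over 0.5 (0 genes), and the 2 genes with the smallest p per list. Ndufa8, Cox6b1, Atp5pb, Ndufs5, Nrf1 and Tfam fall outside it and were chosen after their values were seen. Of 13 subunits encoded by mitochondrial DNA 0 had a named probe set. Alternatives were the replicate block, a filter on dim probe sets, quantile normalization, median centring, other variance models, array weights, other choices of probe sets and leaving out arrays. Figures were drawn with matplotlib 3.10.9.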

Additional observations from a re-analysis of the deposited data

How the results depend on the processing

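The count of 0 members past the threshold held under each of the 18 alternatives, and the count of probe sets past it moved. It was 5 on group alone, 15 with the replicate block, 25 with array weights, 0 with the ordinary t statistic (limma without moderation; 1680 at an unadjusted p under 0.05), 3 without _x_at and _s_at probe sets, 1 without both arrays of number 1, 1 without those of number 2 and 16 without those of number 3. Without single arrays it ran from 2 to 9. The count of members with a lower mutant mean was 46, and 27 with array weights, and ran from 24 to 68 without single arrays. Leaving out a single array leaves the replicate numbers unbalanced between the groups. The median difference of complex I core genes, 0.04 on all arrays, ran from -0.061 to 0.053 without single arrays, and that of all 90 genes from -0.07 to 0.08 over all alternatives. The replicate block changed no call on a member. Of 31 named genes, 14 kept their sign under every alternative. Without _x_at and _s_at probe sets 85 of the 90 genes were left, and 86 with the filter on dim probe sets. The 3 arrays per group, and levels below the overall median in Cox7a1, Cox7b2, Cox7c and Ndufb4, limit these values. The causes were not tested.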

Other observations

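Probe sets that carry several symbols were left out of the members, and 10 of them include a name of the respiratory chain. The brighter of the probe sets shared by Ndufb4 and its near-identical copies Ndufb4b and Ndufb4c read 8.42, 8.86 and 8.36 in wild type and 8.29, 8.75 and 8.24 in mutant arrays, a difference of -0.12 (SE 0.19). That of Ndufs6 and Ndufs6b, for a complex I subunit that binds zinc, differed by -0.11 (SE 0.19), and the brighter of Ndufa11 and Ndufa11b by -0.04 (SE 0.20). A probe set shared by Ndufs5 and its pseudogene differed by -0.05 (SE 0.26). Signals of the single copies cannot be told apart in these values, and all 10 differences lay between -0.17 and 0.05.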
